A study of Rattus norvegicus with 6 samples.

Results

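The DNA replication machinery was taken as 45 named genes, chosen by function with earlier results of these data known. Of them, 14 license and start replication origins and 23 work at the replication fork. Another 5 supply nucleotides and 3 assemble chromatin behind the fork. Of the 45 genes, 41 were matched to a probe of the array through a RefSeq accession. A probe well above background was found for 39, which were tested among 31087 genes. Mcm5, Rpa1, Chaf1a and Uhrf1 were not matched to a probe here. Orc1 and Pole2 had 1 probe each, which was well above background on 0 of 6 and 1 of 6 arrays, and were left out of the tests.

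The tissue was renal cortex of male Sprague-Dawley rats, Crl:CD(SD), bought at 5 weeks of age and kept on a basal diet. Over 4 weeks, 3 control rats were given water and 3 treated rats were given o-anisidine hydrochloride at 700 mg/kg/day. o-Anisidine is an aromatic amine. The labels do not say how the compound was dosed, and they name no genetic change in either group. RNA of each rat was measured on its own single-colour (Cy3) array, and the series design calls the animals biological replicates. Values are log2 signals relative to the 75th percentile of the same array, so a negative value is a probe dimmer than that percentile. Levels are compared between arrays and not between genes, because probes differ in brightness.

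Replication starts in G1, when the origin recognition complex, Cdc6 and Cdt1 load the MCM helicase onto DNA, a step called licensing. In S phase the Cdc7 kinase with its partner Dbf4, together with Mcm10, Cdc45 and the GINS complex, turns the loaded helicase into a moving fork, where polymerases, the sliding clamp PCNA and its loader RFC copy both strands. Ribonucleotide reductase, thymidine kinase and thymidylate synthase supply the nucleotides. Most of these genes are known targets of E2F transcription factors, and most cells of the adult kidney tubule are quiescent.

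On each array 41670 to 43630 of 61657 probes were well above background, 0 spots were saturated, and the signal had a 75th percentile between 923 and 1031. Markers of the labelled tissue were bright: Slc34a1, the phosphate transporter of the proximal tubule, had a mean log2 signal of 8.45 ± 0.10 in controls and 8.49 ± 0.10 after o-anisidine (SD, n = 3 each). All controls and o-anisidine 3 were on 1 slide, while o-anisidine 1 and 2 were on another slide with its own scan. With 3 arrays in a group, precision is limited by their number. In bulk tissue, more cells of a type and more RNA per cell cannot be told apart.

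No replication gene passed the test over all genes, and a minority of them stood above the controls on every treated array. The genes whose 3 treated values all lay above the 3 control values were Cdc6, Mcm10, Cdc7 and Dbf4 of licensing and origin firing, Gins1, Gins4 and Pcna of the fork, and Rrm2 and Tk1 of nucleotide supply. These 9 are 23.1% of the 39 tested members, against 9.55% of all genes, and no member lay below the controls in that way, against 8.88% of all genes. The same 9 were the members higher at an unadjusted p under 0.05, a level reached by 6.36% of all genes, and 0 members were lower at that level, against 5.14%. At an adjusted p under 0.05 (limma, Benjamini-Hochberg, two-sided) 0 members were higher and 0 lower, against 0.0354% and 0.0257% of all genes, and robust eBayes with a mean-variance trend also called 0 and 0. Of the 39 members, 33 had a log2 change above 0, against 50.9% of all genes. The median log2 change was 0.13 over the members and 0.0037 over all genes tested. Of the genes tested, 12015 had a RefSeq symbol; of those, 9.16% were above every control on every treated array and 47.6% had a log2 change above 0. With normexp background correction 7 of the 9 were above every control and no other member was, against 9.59% of all genes.

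**Figure D1:**
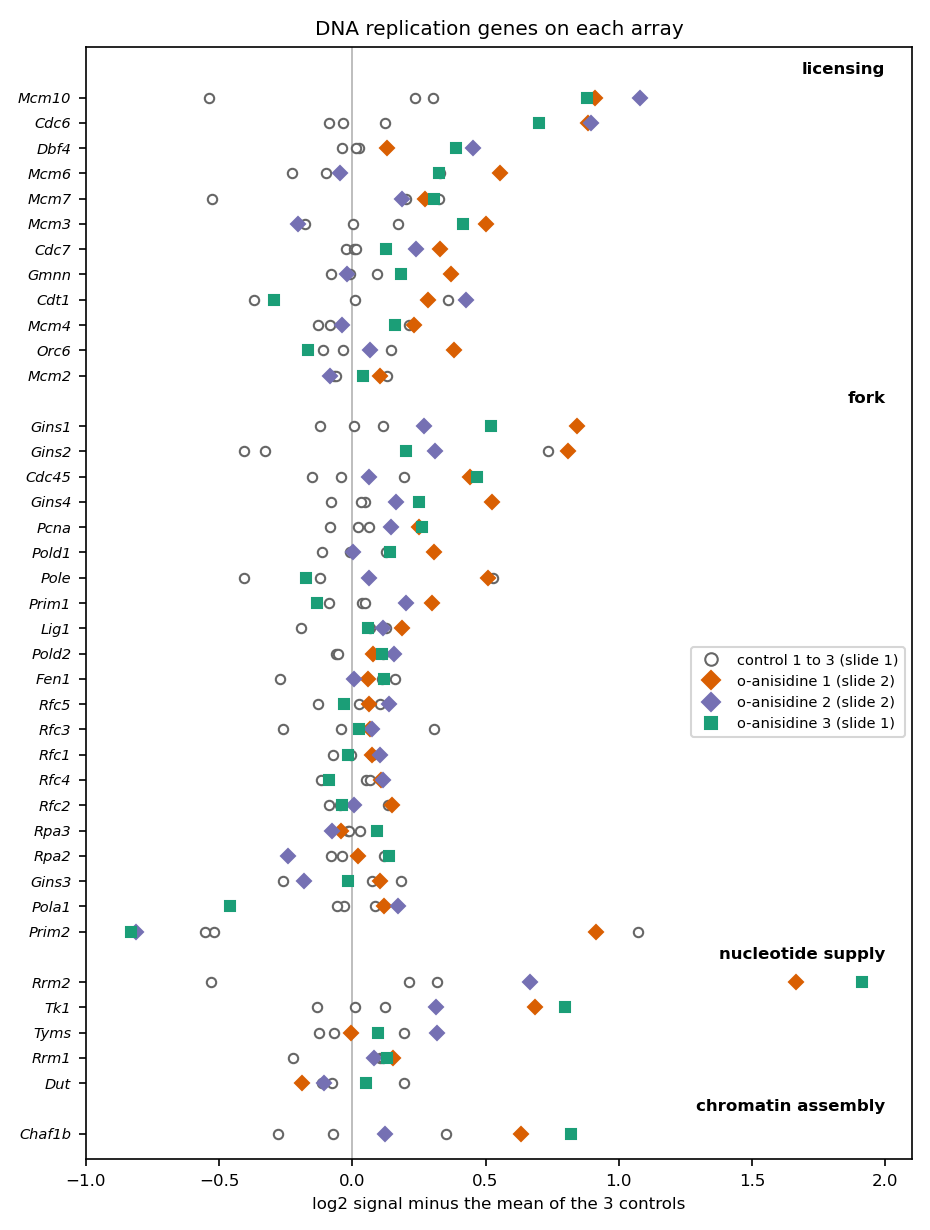
Each row is 1 of the 39 tested replication genes, and each point is 1 array, placed by its log2 signal minus the mean of the 3 controls; open circles are controls, diamonds are o-anisidine 1 and 2 on slide 2, and squares are o-anisidine 3 on slide 1. Rrm2, Mcm10 and Cdc6 stand to the right of all their controls, the treated arrays of the Rfc rows stay close to 0, and Prim2 has control 3 and o-anisidine 1 far from the other arrays.

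The promoters of these genes were set beside their values, because E2F sites are a textbook feature of replication genes and the CHR element, a repressor site active outside late cell cycle, is one of mitotic genes. RefSeq promoter windows of the GRCr8 build, 250 bases before to 50 after the gene start, were found for 39 of the 45 members. The E2F letters searched were TTTCCCGC, TTTCGCGC, TTTGGCGC and TTTGCCGC on both strands. They stood in a window of 17 of the 39 members (43.6%), against 2.14% of all 33469 windows. These 39 are not the same genes as the 39 tested members, and the 17 include Mcm5, Pole2 and Uhrf1, which were not tested. In a list of 30 mitosis genes the E2F letters stood in 1 of the 25 with a window (4%). Those 25 likewise include genes that were not tested, such as Mki67 and Top2a. Members and mitosis genes were counted once each, on any of their windows, but all promoters by single window. Dut and Uhrf1 had several windows. The CHR letters TTTGAA, searched on both strands, stood in 6 of the 39 members (15.4%) and in 18.3% of all windows. They stood in 18 of the 25 mitosis genes with a window (72%). Among the 9 members higher on every treated array, 6 had a window and 1 of those held the E2F letters. Of the other tested members, 13 of the 28 with a window did. No window was found for Cdc6, Gins4 and Rrm2. The 6 thus leave out the member of smallest p and the one with the largest change, and the difference was not tested. A match is a description of letters and not a bound site, and some of these letters overlap on opposite strands.

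Windows are printed for 3 members and 1 mitosis gene, with the matched letters in capitals (E2F for the members, CHR for Pttg1). Gins1 and Mcm2 both held E2F letters close to the start, and their log2 changes were 0.54 and 0.021. Mcm10, with a log2 change of 0.96, held none of the searched E2F letters in its window. That window does hold TTTGGCGG, which differs from a searched form only in the last base and was not searched. The absence of a match therefore depends on the letters chosen. The windows are Gins1 at chr3:160184670-160184969 on the plus strand, Mcm2 at chr4:122918045-122918344 on the minus strand, Mcm10 at chr17:78175137-78175436 on the plus strand and Pttg1 at chr10:28406277-28406576 on the minus strand (GRCr8, each 5′ to 3′ on the gene's strand).
Gins1: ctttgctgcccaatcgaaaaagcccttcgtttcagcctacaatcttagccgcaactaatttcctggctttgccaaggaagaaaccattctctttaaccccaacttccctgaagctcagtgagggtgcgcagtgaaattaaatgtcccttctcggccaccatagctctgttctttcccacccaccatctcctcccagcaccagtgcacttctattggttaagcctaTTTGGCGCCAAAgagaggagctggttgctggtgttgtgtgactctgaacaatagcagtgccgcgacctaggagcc
Mcm2: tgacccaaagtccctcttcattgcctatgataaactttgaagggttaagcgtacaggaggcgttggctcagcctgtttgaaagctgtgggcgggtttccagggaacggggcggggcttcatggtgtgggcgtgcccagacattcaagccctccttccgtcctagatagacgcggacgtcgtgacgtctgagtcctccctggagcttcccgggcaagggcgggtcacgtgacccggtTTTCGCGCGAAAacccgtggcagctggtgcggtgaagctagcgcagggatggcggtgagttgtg
Mcm10: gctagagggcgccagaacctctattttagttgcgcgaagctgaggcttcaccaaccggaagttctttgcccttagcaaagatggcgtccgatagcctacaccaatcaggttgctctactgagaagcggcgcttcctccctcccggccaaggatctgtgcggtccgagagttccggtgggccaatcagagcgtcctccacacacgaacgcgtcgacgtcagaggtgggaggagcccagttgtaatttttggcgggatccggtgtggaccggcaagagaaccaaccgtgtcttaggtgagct
Pttg1: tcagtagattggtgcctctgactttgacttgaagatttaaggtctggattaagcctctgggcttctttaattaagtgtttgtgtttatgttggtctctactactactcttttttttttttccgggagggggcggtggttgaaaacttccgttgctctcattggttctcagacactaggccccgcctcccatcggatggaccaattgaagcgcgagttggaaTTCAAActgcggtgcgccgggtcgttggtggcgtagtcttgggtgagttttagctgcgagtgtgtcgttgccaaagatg

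Licensing genes had a median log2 change of 0.24 over 12 tested members, all 12 of them above 0, and 4 of the 12 were above every control on every treated array, against 9.55% of all genes. Cdc6, the loader that brings the helicase to the origin, had the smallest p of all members. Its log2 signal was -5.63, -5.43 and -5.58 in controls 1, 2 and 3 and -4.66, -4.65 and -4.85 in o-anisidine 1, 2 and 3. The treated values lay together above the controls, a 1.77-fold difference (log2 change 0.83, SE 0.095, 95% interval 0.60 to 1.06, adjusted p = 0.0888). Over 17 alternative settings the adjusted p of Cdc6 ran from 0.0813 to 0.278. Its log2 change was 0.24 with normexp background correction, which adds an offset of 50 to every signal. Such an offset draws log2 changes of dim probes toward 0, and its part in the lower value was not tested. A dimmer Cdc6 probe, well above background on 0 of 6 arrays, read -6.69, -6.76 and -6.91 in controls and -6.23, -6.25 and -6.31 after o-anisidine.

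Mcm10 encodes a factor that binds the loaded helicase and helps to start unwinding. Its signal was -5.67, -4.90 and -4.83 in controls and -4.23, -4.06 and -4.25 after o-anisidine. Control 1 was the dimmest array by far, and the treated arrays were tight (log2 change 0.96, SE 0.23, adjusted p = 0.237). With normexp, which adds the same offset, the log2 change of Mcm10 was 0.35. A second Mcm10 probe was well above background on 0 of 6 arrays.

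Cdc7, the kinase that fires origins, and Dbf4, its activating partner, differed less. Cdc7 read -3.60, -3.57 and -3.56 in controls and -3.25, -3.34 and -3.45 after o-anisidine (log2 change 0.23, SE 0.078, adjusted p = 0.365). Dbf4 read -4.48, -4.42 and -4.43 in controls and -4.32, -3.99 and -4.06 after o-anisidine (log2 change 0.32, SE 0.10, adjusted p = 0.346). For both genes the controls lay close together and every treated value stood above them. With normexp the log2 change was 0.13 for Cdc7 and 0.17 for Dbf4, and the groups of both overlapped.

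The helicase subunits themselves showed no such separation. The 5 measured subunits of the MCM hexamer, Mcm2, Mcm3, Mcm4, Mcm6 and Mcm7, had log2 changes from 0.021 to 0.28, with a median of 0.24. Of these 5, 0 were above every control on every treated array and 0 below, against 9.55% and 8.88% of all genes. With 5 genes, counts of 0 do not set the subunits apart from those shares. Mcm2 read -1.05, -1.25 and -1.25 in controls and -1.08, -1.27 and -1.14 after o-anisidine, with a 95% interval of the log2 change of -0.21 to 0.25. Its other kept probes had log2 changes of -0.12 and -0.14 (SE 0.15 each). Mcm3 read -0.22, -0.39 and -0.57 in controls and 0.11, -0.60 and 0.02 after o-anisidine, so o-anisidine 2 stood below every control while the other treated arrays stood above them. The 4 kept probes of Mcm3 had log2 changes from -0.12 to 0.52 and all of them had o-anisidine 2 as the dimmest treated array.

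Mcm7 differed from its relatives through a control: control 3 read 0.84, against 1.70 and 1.57 in controls 1 and 2 and 1.56 to 1.68 in the treated rats. The dimmer Mcm7 probe gave -2.38 in control 3, against -1.35 to -1.62 on the other arrays. Without control 3 the log2 change of Mcm7 was -0.0092, and over all arrays it was 0.25 (SE 0.23). Mcm6 had a log2 change of 0.28 (SE 0.21) and Mcm4 of 0.12 (SE 0.13).

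Of the loading factors and their brake, Cdt1, which loads the helicase with Cdc6, had a log2 change of 0.14 (SE 0.25), and Gmnn, which encodes geminin, the inhibitor of Cdt1, had 0.18 (SE 0.12). Orc6, a subunit of the origin recognition complex, had 0.094 (SE 0.16). The groups of all these genes overlapped.

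Fork genes had a median log2 change of 0.062 over 21 tested members, 16 of them above 0, and 3 of the 21 (14.3%) were above every control on every treated array, near the 9.55% of all genes. The GINS complex held 2 of these 3; it keeps the helicase and the leading strand polymerase together. Gins1 read -2.89, -2.66 and -2.77 in controls and -1.93, -2.50 and -2.25 after o-anisidine (log2 change 0.54, SE 0.16, adjusted p = 0.311). Gins4 read -1.67, -1.69 and -1.80 in controls and -1.20, -1.55 and -1.47 after o-anisidine (log2 change 0.31, SE 0.11, adjusted p = 0.388). In both, o-anisidine 1 was the brightest and o-anisidine 2 the nearest to the controls. The log2 change of Gins1 was 0.35 with normexp, and that of Gins4 was 0.21 without o-anisidine 1.

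The other GINS subunits had overlapping groups. Gins2 read -4.73, -5.79 and -5.87 in controls and -4.66, -5.16 and -5.27 after o-anisidine, with control 1 above 2 of the 3 treated arrays (log2 change 0.44, SE 0.34). Gins3 had a log2 change of -0.031 (SE 0.14, 95% interval -0.37 to 0.31). Cdc45, the partner of GINS in the active helicase, read -0.78, -1.01 and -1.12 in controls and -0.53, -0.91 and -0.50 after o-anisidine (log2 change 0.32, SE 0.15, adjusted p = 0.465). Only o-anisidine 2 fell within the range of the controls.

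Pcna, the sliding clamp, was slightly but evenly higher. It read 1.64, 1.60 and 1.50 in controls and 1.83, 1.72 and 1.84 after o-anisidine, a 1.16-fold difference (log2 change 0.22, SE 0.077, adjusted p = 0.377). Its dimmer probe gave a log2 change of 0.12 (SE 0.085) with groups that overlapped. The 5 subunits of the clamp loader, Rfc1 to Rfc5, had log2 changes between 0.039 and 0.056, all with overlapping groups. Rfc5 read 0.14, 0.22 and -0.018 in controls and 0.18, 0.25 and 0.080 after o-anisidine, and its dimmer probe had a log2 change of -0.060 (SE 0.079).

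Of the genes that finish Okazaki fragments, Fen1, the nuclease that trims them, read 2.02, 1.97 and 1.59 in controls and 1.92, 1.87 and 1.98 after o-anisidine. Control 3 was low and the other arrays were alike (log2 change 0.062, SE 0.13), while the dimmer Fen1 probe had -0.044 (SE 0.094). Lig1, the ligase that joins the fragments, had 0.12 (SE 0.10).

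The polymerases and the single-strand binding proteins had groups that overlapped. Pold1, the catalytic subunit of the lagging strand polymerase, had a log2 change of 0.15 (SE 0.11). Pold2, another subunit of it, read 1.30, 1.13 and 1.13 in controls and 1.27, 1.34 and 1.30 after o-anisidine (log2 change 0.12, SE 0.080), and its dimmer probe had -0.073 (SE 0.078). Pole, the leading strand polymerase, had 0.13 (SE 0.28, 95% interval -0.56 to 0.82). Pola1, which extends primers, read -3.35, -3.24 and -3.38 in controls and -3.20, -3.15 and -3.78 after o-anisidine, o-anisidine 3 being below the rest (log2 change -0.056, SE 0.18). Rpa2 and Rpa3, which coat single-stranded DNA, had -0.027 (SE 0.12) and -0.0087 (SE 0.075).

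Prim2, the large subunit of primase, was the most variable member and its variation did not follow the groups. It read 0.24, 0.20 and 1.83 in controls 1, 2 and 3 and 1.67, -0.05 and -0.08 in o-anisidine 1, 2 and 3. Control 3 and o-anisidine 1 were therefore the high arrays, 1 from each group and from different slides. The second Prim2 probe showed the same arrays high, at -1.66 and -1.83, against -3.26 to -2.88 on the others. Prim1, the catalytic subunit, read 0.28, 0.16 and 0.29 in controls and 0.54, 0.44 and 0.11 after o-anisidine, without that pattern. The log2 change of Prim2 was -0.24 (SE 0.64, 95% interval -1.81 to 1.32), so the comparison of groups is imprecise for this gene.

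Nucleotide supply held the member with the largest difference. Rrm2, the small subunit of ribonucleotide reductase whose supply limits the enzyme in S phase, read 1.19, 1.08 and 0.34 in controls and 2.54, 1.54 and 2.79 after o-anisidine. That is a 2.66-fold difference (log2 change 1.41, SE 0.38, 95% interval 0.48 to 2.34, adjusted p = 0.28). The treated rats differed widely among themselves, o-anisidine 2 being closest to the controls. All 4 kept Rrm2 probes had every treated array above every control, with log2 changes from 1.21 to 1.65. Rrm1, the large subunit, read -1.55, -1.54 and -1.88 in controls and -1.50, -1.57 and -1.53 after o-anisidine (log2 change 0.12, SE 0.11), and its other probes had 0.040 and 0.049.

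Tk1, the thymidine kinase of S phase, read 0.32, 0.07 and 0.21 in controls and 0.88, 0.51 and 1.00 after o-anisidine (log2 change 0.60, SE 0.15, adjusted p = 0.242). A dimmer Tk1 probe separated the groups more widely, with a log2 change of 0.87 (SE 0.10). Tyms, which makes thymidylate, had a log2 change of 0.14 (SE 0.13). Dut, which clears dUTP, read 3.06, 3.33 and 3.02 in controls and 2.94, 3.03 and 3.19 after o-anisidine (log2 change -0.082, SE 0.11), and its other probe had 0.046 (SE 0.079).

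**Figure D2:**
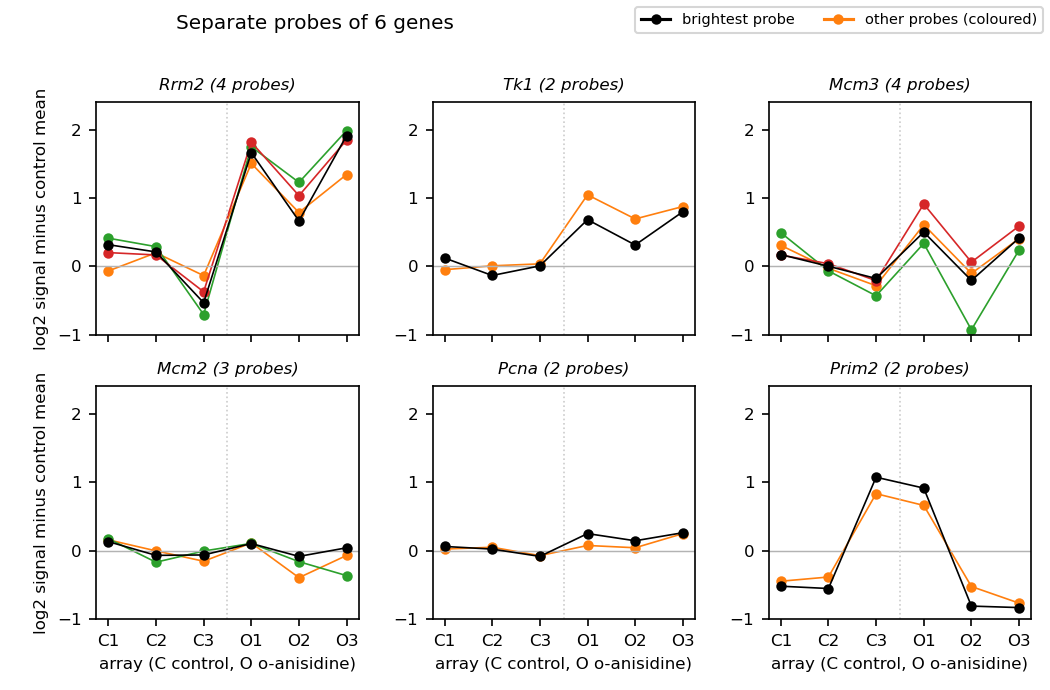
Each panel is 1 gene and each line 1 kept probe, drawn as the log2 signal minus that probe's control mean on controls 1 to 3 (C1 to C3) and o-anisidine 1 to 3 (O1 to O3); black is the brightest probe. The 4 Rrm2 probes are above their controls on all treated arrays and nearest to them on O2, the Mcm3 probes have O2 as the lowest treated array, and both Prim2 probes are high on C3 and O1.

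Chromatin assembly was represented by Chaf1b alone, a subunit of the factor that places histones on new DNA. It read -1.37, -1.80 and -2.01 in controls and -1.09, -1.60 and -0.91 after o-anisidine, o-anisidine 2 lying within the controls (log2 change 0.52, SE 0.23, adjusted p = 0.458). A single gene does not describe the step.

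For the 30 members whose groups overlapped, log2 changes lay between -0.24 and 0.52, and the 95% interval stayed within 1 on either side of 0 for 27 of them and within 0.5 for 21. The wide ones were Gins2, Chaf1b and Prim2. Brightest and other probes differed in sign for 6 members, Dut, Fen1, Mcm2, Mcm3, Pold2 and Rfc5, of which Mcm3 had a brightest probe at 0.24 and the others between -0.082 and 0.12.

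Arrays differed in how far the members stood from the controls. Relative to the mean of the controls, the 39 members had a median shift of 0.27, 0.11 and 0.13 on o-anisidine 1, 2 and 3, and of 0.11, 0.0073 and -0.084 on controls 1, 2 and 3, so control 1 lay close to o-anisidine 2 and 3. On the treated arrays 24, 17 and 17 of the 39 members stood above all controls, against 32.0%, 33.4% and 25.2% of all genes. Without control 1, 18 members were above every control array, against 13.5% of all genes, and without o-anisidine 2 there were 15, against 13.9%. The median log2 change was 0.21 without control 1.

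Within the slide that held all controls and o-anisidine 3, the differences of the 9 separated members were 0.70 for Cdc6, 0.88 for Mcm10, 0.13 for Cdc7, 0.39 for Dbf4, 0.52 for Gins1, 0.25 for Gins4, 0.26 for Pcna, 1.91 for Rrm2 and 0.80 for Tk1 on the log2 scale. Their direction there was fixed by the way the 9 were chosen, since that slide holds all controls. The sizes were bounded by the same choice, because o-anisidine 3 had to exceed every control. These values are therefore no separate check of the slides. The smallest-p member, Cdc6, had an adjusted p = 0.214 with slide as a block. On that slide 17 members were above and 4 below all controls, against 25.2% and 31.7% of all genes.

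**Figure D3:**
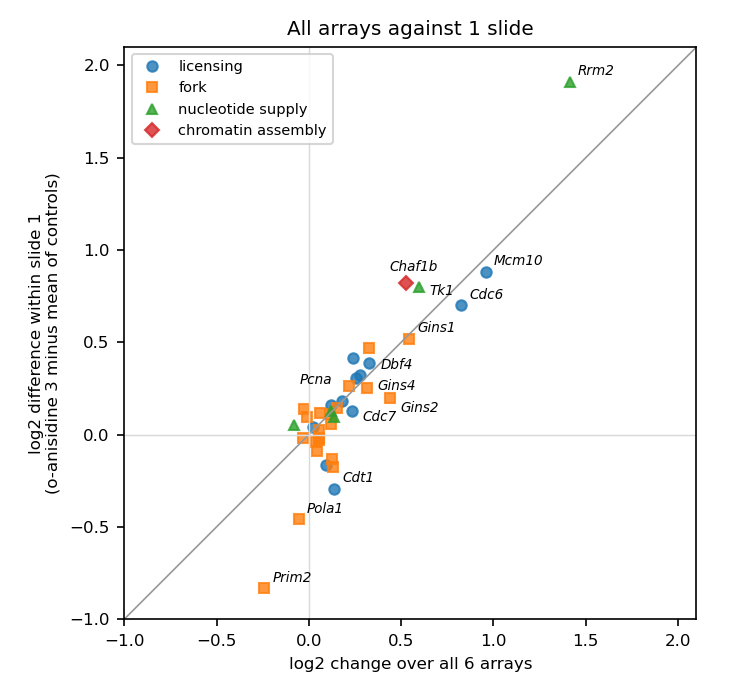
Each point is 1 replication gene, with its log2 change over all 6 arrays on the horizontal axis and the log2 difference between o-anisidine 3 and the mean of the controls on slide 1 on the vertical axis; the line marks equal values. Rrm2, Tk1 and Chaf1b lie above the line, at 1.91, 0.80 and 0.82 within the slide, and Pola1, Cdt1 and Prim2 fall below it.

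Genes of the same pathway outside the 45 had list medians from -0.013 to 0.092, against 0.13 for the members and 0.062 for fork genes alone. Of 33 other replication genes (origin recognition subunits, firing factors, fork protection and accessory polymerase subunits), 22 were tested, with a median log2 change of -0.013 and 10 above 0, and 0 passed the threshold. Timeless, a fork protection protein, had 0.36 (SE 0.14, adjusted p = 0.412), and Pole4, a small polymerase subunit, had -0.19 (SE 0.078, adjusted p = 0.435) with all treated arrays below the controls. Of 14 tested genes of other nucleotide supply (median 0.092), 0 passed and 10 had a log2 change above 0, against 50.9% of all genes. Of the 14, 4 (28.6%) were above every control, against 9.55% of all genes and 23.1% of the members. Dctpp1, which clears abnormal deoxycytidine nucleotides, had 0.38 (SE 0.085, adjusted p = 0.201). Of 14 tested genes of other chromatin assembly (median 0.021), 0 passed. Hells, a remodeller of heterochromatin, had 0.23 (SE 0.098, adjusted p = 0.448) and the histone variant gene H2az1 had 0.16 (SE 0.077, adjusted p = 0.483).

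Of 18 tested E2F, pocket protein and G1/S genes, which govern S phase entry, 17 had a log2 change above 0, against 50.9% of all genes, the median was 0.11 and 0 passed. On every treated array 3 of the 18 were above every control, against 9.55% of all genes. E2f1, an activator of replication genes, read -1.73 ± 0.16 in controls and -1.21 ± 0.30 after o-anisidine (SD, n = 3 each; log2 change 0.52, SE 0.17, adjusted p = 0.36). Ccna2, a cyclin of S phase and of mitotic entry, had 1.23 (SE 0.24, adjusted p = 0.157).

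Mitosis genes were measured on the same arrays. All 25 tested members of the mitosis list were above every control on every treated array, against 9.55% of all genes. At the threshold 0 were higher and 0 lower, against 0.0354% and 0.0257% of all genes. The median log2 change was 1.27, against 0.13 for the replication genes. This list, like the others, was chosen with earlier results of these data known. Aurkb and Cenpa, kinase and centromere genes of the list, were well above background on 2 of 3 controls and passed the probe filter through the treated arrays. Without them the median was 1.24 over 23 genes. Pttg1, which encodes securin, had 1.54 (SE 0.19, adjusted p = 0.0993), and Racgap1, a regulator of cytokinesis, had 0.90 (SE 0.10, adjusted p = 0.0891). Among replication genes only Rrm2 exceeded that mitosis median. The difference between the lists was not tested, and the smallest mitosis change, 0.34, was below those of Cdc6, Mcm10, Gins1, Gins2, Rrm2, Tk1 and Chaf1b.

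**Figure D4:**
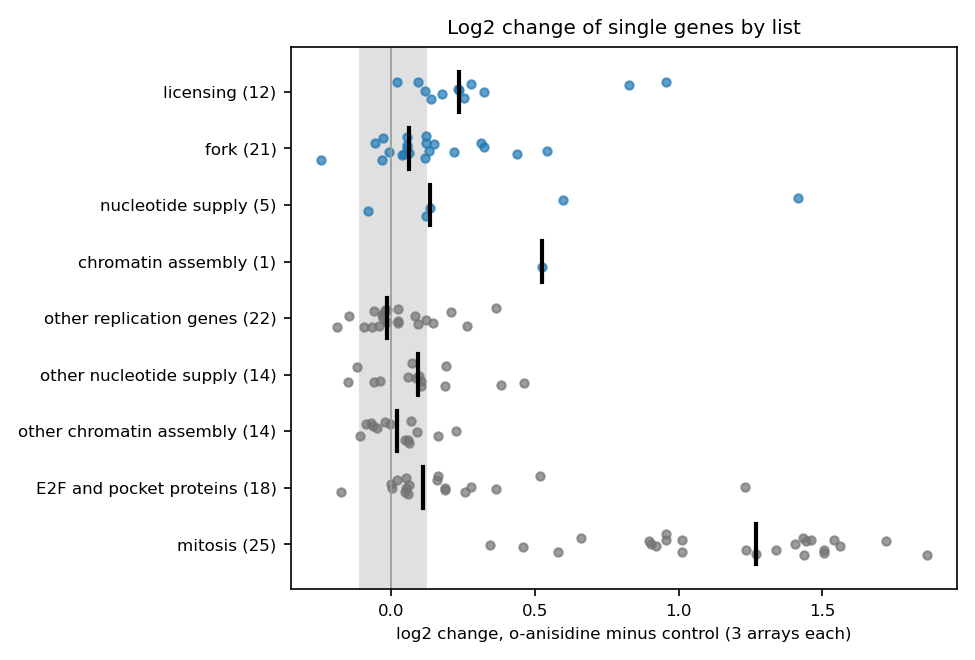
Each point is 1 tested gene, placed by its log2 change of o-anisidine minus control; rows are the 4 groups of replication genes (blue) and 5 other lists (grey), with the number tested in brackets and a black bar at the median. The grey band spans the quartiles of all 31087 genes, -0.11 to 0.12. Fork genes have a median of 0.062, inside the band, and mitosis genes lie from 0.34 to 1.86.

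Markers of blood cells were counted on the same arrays. Of 12 tested erythroid markers, 10 were above every control, against 9.55% of all genes, and 4 rose past the threshold, against 0.0354%. Among them were the blood group genes Rhd, with a log2 change of 2.61 and an SE of 0.12 (limma, adjusted p = 0.00477), and Kel, at 2.17 with an SE of 0.085 (limma, adjusted p = 0.0020). The summed signal of all 12 tested erythroid markers, relative to the 75th percentile, was 527 to 726 in controls and 1081 to 1305 after o-anisidine. Gata1, a defining factor, had no probe kept, and Tfrc, the transferrin receptor, had -0.85 (SE 0.26, adjusted p = 0.329).

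Of 16 tested leukocyte markers, 1 rose past the threshold and 0 fell, against 0.0354% and 0.0257% of all genes. The riser was Cd52, at 2.12 with an SE of 0.17 (limma, adjusted p = 0.038), and S100a9, a neutrophil protein, had 1.37 (SE 0.22, adjusted p = 0.115). Over the list 5 of 16 genes had a log2 change above 0 and the median was -0.10. On every treated array 4 of the 16 were above and 1 below every control, against 9.55% and 8.88% of all genes. The summed signal of the list was 41.0 to 54.7 in controls and 55.2 to 60.6 after o-anisidine. Of 12 proximal tubule, 9 other nephron and 11 fibroblast and endothelial markers 0 passed. In the proximal tubule list G6pc1 and Lrp2 had the smallest p, with log2 changes of 0.52 (SE 0.26) and -0.20 (SE 0.10). The water channel gene Aqp2 and the podocyte gene Podxl had -0.58 (SE 0.22) and -0.31 (SE 0.13), both lower than in controls on average. Emcn of endothelium and the collagen gene Col1a2 had -0.22 (SE 0.093) and -0.32 (SE 0.16), in a list with 5 of 11 genes above 0 and a median of -0.080. The part of these cell types in the replication values was not tested.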

How the data were processed

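Renal cortex RNA of 6 rats was measured on 6 Agilent arrays. Per the file headers, the deposited intensity values came from Agilent Feature Extraction 10.7.1.1 (10.7 per the submitters' processing notes), background-subtracted and detrended, unscaled between arrays. The processed intensity was divided by each array's 75th percentile and taken as log2. Control spots and 16 probes with an outlier flag were left out. Probes well above background on all 3 arrays of a group were kept (42036 of 61657). Accessions were matched to RefSeq symbols of GRCr8 (27460 probes, 15284 symbols), and the brightest kept probe stood for each of 31087 genes, 12015 with a symbol and the others known by the array's own identifier. Groups were compared with limma 3.58.1 in R 4.3.3 (lmFit, eBayes, two-sided, Benjamini-Hochberg over all genes, threshold 0.05). The 95% intervals use the moderated degrees of freedom (4 residual and 2.11 prior) and are not adjusted.

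The deposited value table of the authors holds intensity scaled to the 75th percentile; each column matched the scanner file of a different replicate in its group (r = 1.00, own file 0.991 to 0.993), and it served as an alternative. Medians of its columns lay between 0.104 and 0.108. Replicate numbers follow the scanner files. Normexp used the median signal, the spot mean not being among the columns used here, with an offset of 50 and quantile normalization.

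The members and all lists were chosen with earlier results of these data known. Array values are given by a rule: per group of genes the 3 members of smallest p, the 2 largest changes in each direction and members whose probes differed in sign. Array values of Cdc7, Mcm7, Cdc45 and Prim1 were added after they were seen. In each other list the 2 genes of smallest p are named, except 1 that is not reported here, and Slc34a1, Gata1 and Tfrc were added. On simulated arrays (o-anisidine against control, 31087 genes, 5 runs) the test recovered 61.5%, 89.9% and 97.3% of log2 changes of 1, 2 and 4, with 43 false calls. Noise there was drawn independently for each gene, without a slide effect or deviations shared by the genes of an array. These shares therefore do not give the power of the test on the real arrays.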

Additional observations from a re-analysis of the deposited data

How the results depend on the processing

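In each of the 17 alternatives 0 members were higher and 0 lower at the threshold. The median log2 change of all members was 0.081 to 0.21 when single arrays were left out. The medians were 0.12 (without o-anisidine 1) to 0.31 for licensing, 0.024 to 0.14 (without control 1) for fork, 0.074 to 0.23 for nucleotide supply and 0.38 to 0.73 for Chaf1b. In these fits 9 to 18 members were above every control array, against 9 with all arrays. The share of all genes also rose, from 9.55% to 13.5% without control 1 and 13.9% without o-anisidine 2. With normexp 7 members were above every control, against 9.59% of all genes, Cdc7 and Dbf4 having lost their separation. Licensing had a median of 0.11 with normexp. Within slide 1, where only 1 treated array had to exceed the controls, 17 members were above all of them, against 25.2% of all genes. The cause of the other shifts was not tested. With the replicate number as a block 0 members passed, and 1 gene of all was higher and 0 lower. The labels give no pairing: same-numbered arrays deviated together at r of 0.012 to 0.077, and 1 of 3 controls and 2 of 3 treated arrays correlated best with their own number.

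The sign of the log2 change reversed for 19 members under at least 1 alternative, Gins2, Mcm7 and Prim2 among them. Normexp put Cdt1 at -0.018, Gins2 at -0.027, Pola1 at 0.074, Rfc4 at -0.069 and Rpa3 at 0.092, and the mean of kept probes put Mcm2 at -0.079 and Rfc5 at -0.0017. Slide as a block, and slide 1 alone, put Orc6 at -0.17, Cdt1 at -0.29, Prim1 at -0.13, Pole at -0.17, Rfc1 at -0.017, Rfc2 at -0.039, Rfc4 at -0.088, Rfc5 at -0.032, Rpa2 at 0.14, Rpa3 at 0.093 and Dut at 0.052. Leaving out single arrays gave Cdt1 -0.045 to 0.35, Dut -0.15 to 0.014, Fen1 -0.073 to 0.14, Gins3 -0.16 to 0.061, Mcm2 -0.021 to 0.086, Mcm7 -0.0092 to 0.42, Orc6 -0.051 to 0.22, Pola1 -0.17 to 0.15, Pole -0.070 to 0.40, Prim2 -0.82 to 0.29, Rfc2 -0.016 to 0.11, Rfc3 -0.076 to 0.21, Rfc4 -0.016 to 0.11, Rfc5 -0.0090 to 0.11, Rpa2 -0.11 to 0.080 and Rpa3 -0.060 to 0.026. Over all genes, leaving out single arrays gave 2 to 16 higher and 1 to 5 lower (11 and 8 with all arrays), normexp 44 higher and 15 lower, trend and robust estimation 91 and 29, slide as a block 2 and 1, slide 1 alone 1 and 1, no filter on dim probes 5 higher and all 6 arrays well above background 5 lower. The dimmest tested members were Cdc6, Mcm10, Dbf4, Cdt1, Gins2, Gins3 and Pole, all well above background on every array. Whether low signal limits their values was not tested.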
